A study of Hordeum vulgare with 39 samples.

Results

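In the developing barley grain, 87 genes were higher in the late than in the early embryo while they were lower in the late than in the early tissues of the mother plant. They were found among the 83990 transcript entries of the table by a rule on CPM (the reads of an entry scaled to the total counted in its library) averaged over the libraries of each tissue and stage. The mean at 24 days after pollination (DAP) had to be more than 2 times that at 8 DAP in embryo, less than 0.5 times in seed maternal tissues and between 0.5 and 2 times in endosperm. The highest stage mean of each tissue had to reach 5 CPM, and the highest stage means of the tissues had to lie less than 10-fold apart. These level steps alone were met by 10601 entries, called the well-expressed genes here. The rule would have kept at most 200 members, and all 87 that met it were taken.

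The grains were of the six-rowed spring barley Morex, an inbred cultivar, and 3 libraries were made for each of 13 combinations of tissue and stage. Embryo was sampled at 8, 16, 24 and 32 DAP, seed maternal tissues at 4, 8, 16 and 24 DAP and endosperm at 4, 8, 16, 24 and 32 DAP. All plants shared 1 genotype and grew in a climate chamber with no treatment labelled, and the tissues were separated by hand. Messenger RNA was selected by its poly-A tail and read by single-end sequencing, after extraction with a pair of kits whose use per library the labels do not state.

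The embryo and the endosperm are the offspring of fertilization. The embryo first forms its organs and later fills reserves and acquires tolerance to drying, while the endosperm becomes the starchy store of the grain. The seed maternal tissues, such as pericarp, nucellus and seed coat, belong to the mother plant. They pass nutrients to the filial tissues early in grain growth, and most of them later lose their contents and dry out. A grain therefore holds tissues of different parentage that mature at different times, and the genes described here followed opposite courses in embryo and in the maternal layers.

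Each library had between 6148131 and 36732347 counted reads, and the median library had 25882919. Identifiers could not be paired with gene names, since 0 matched the reference gene table, so genes are given by identifier and no function is stated for any of them. For the same reason the labelled tissues could not be checked against marker genes. The 87 entries belong to 87 different genes, and 6 of these genes have further transcript entries in the table, between which the counting may have divided reads. One library stood apart in a way that touches these genes. Replicate 3 of the 4 DAP seed maternal tissues correlated with its replicates 1 and 2 at 0.959 each, whereas these correlated with each other at 0.994 (Pearson, across genes, on log2(CPM + 1)). With the 8 DAP libraries of the same tissue it correlated at 0.948 to 0.960, and replicates 1 and 2 at 0.933 to 0.947. In 70 of the 87 genes it held the highest of the 3 levels at 4 DAP, against 29.8% of all genes tested. The counts called in each comparison that uses it are given with and without it. Peak stages, the order of libraries and the genes called in both courses are given only with it included.

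The values that chose the genes are given as a description. In embryo the mean at 24 DAP was between 2.02 and 734 times that at 8 DAP, with a median of 3.83, and it was more than 10 times as high in 21 of the 87 genes. In seed maternal tissues the mean at 24 DAP was between 0.0294 and 0.4997 times that at 8 DAP, with a median of 0.341, and it was under 0.25 times in 25 genes. In endosperm the ratio had a median of 0.960 and was over 1 in 42 genes. The genes nearest to the limits stood at 2.02 in embryo and 0.4997 in seed maternal tissues, and the nearest genes left out by 1 criterion alone stood at 1.99 and 0.503. For the other limits, the members nearest to them had an endosperm ratio of 0.504 or 1.97, a lowest tissue maximum of 5.38 CPM and maxima 9.83-fold apart, and the nearest left out had 0.495, 2.00, 4.61 CPM and 10.4-fold.

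The libraries were well separated in most of the genes, a property that the choice of members favours. The 3 embryo libraries of 24 DAP all lay above the 3 of 8 DAP in 81 of the 87 genes, where 31.7% of all genes tested had that order. The 3 seed maternal libraries of 24 DAP all lay below the 3 of 8 DAP in 82 of the 87, against 20.8% of all genes tested. Titles carry library numbers, and a gap of more than 500 between them was taken to start a new run. The labels do not name such runs. There were 6, and 1 of them held 2 embryo libraries of each of these stages. Within that run the embryo ratio of 24 over 8 DAP was above 1 in 87 of 87 genes and above 2 in 86, with a median of 4.42, against 50.1% and 21.1% of the well-expressed genes. These libraries are among those that chose the genes, so the ratios are no separate check of the run. The seed maternal libraries of 24 DAP carry numbers of 1 run and those of 8 DAP carry numbers of other runs, so run and stage cannot be told apart there. In all of these bulk samples, fewer cells of a type and less RNA per cell cannot be told apart.

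The median level over the 87 genes shows the course in each library. In embryo the median was 7.54, 5.84 and 9.56 CPM in the 3 libraries of 8 DAP and 14.3, 21.2 and 30.0 CPM in those of 16 DAP. It was 38.9, 34.7 and 22.1 CPM at 24 DAP and 31.3, 24.2 and 16.7 CPM at 32 DAP. The embryo libraries of 8 DAP lay below all later embryo libraries, and those of 24 and 32 DAP overlapped. The maternal median was 26.2, 25.1 and 70.2 CPM at 4 DAP and 59.7, 55.0 and 47.6 CPM at 8 DAP. It was 28.9, 27.4 and 28.6 CPM at 16 DAP and 16.1, 14.4 and 12.5 CPM at 24 DAP. The 8, 16 and 24 DAP libraries of the maternal tissues formed 3 steps without overlap, and only replicate 3 of 4 DAP exceeded the 8 DAP libraries. In endosperm the median ran from 4.54 to 5.56 CPM at 4 DAP and from 10.2 to 19.9 CPM over all libraries of the later stages, without a step between them. The median over the well-expressed genes moved less in embryo, between 30.0 and 35.01 CPM, and in seed maternal tissues, between 32.9 and 34.8 CPM. In endosperm it was 13.4 CPM at 4 DAP, 24.4 CPM at 8 DAP and between 16.6 and 20.3 CPM later, so there the well-expressed genes also stood lowest at 4 DAP.

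**Figure D1:**
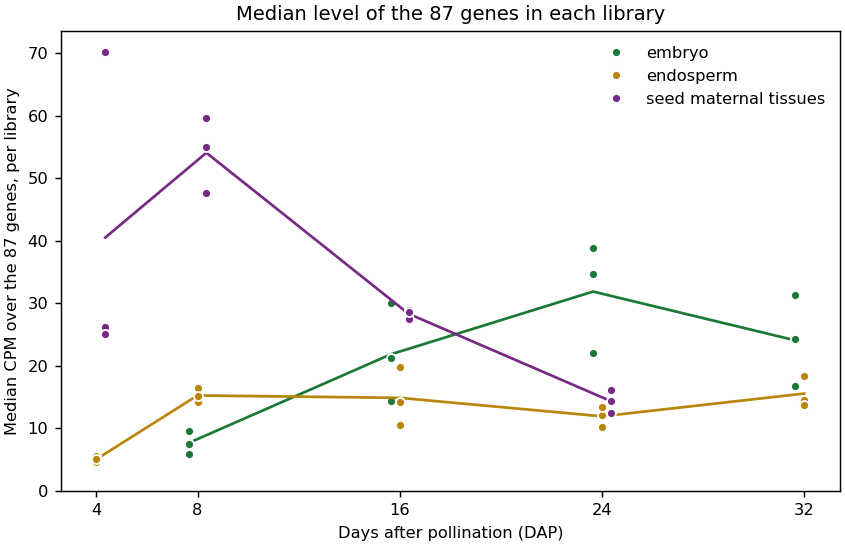
Median CPM over the 87 genes in each of the 39 libraries (points), by days after pollination, with lines through the mean of the 3 libraries of each tissue and stage. The embryo medians run from 5.84 CPM at 8 DAP to a highest library of 38.9 CPM at 24 DAP, the seed maternal medians from 59.7 CPM at 8 DAP down to 12.5 CPM at 24 DAP, and 1 seed maternal library of 4 DAP lies at 70.2 CPM.

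HORVU.MOREX.r3.5HG0498710.1 had the largest opposite change. It had 0.0656, 0.0567 and 0.0272 CPM in the embryo libraries of 8 DAP, which is 1 read in each, and 0.313, 1.62 and 1.34 CPM in those of 16 DAP. It had 38.9, 36.1 and 34.7 CPM in embryo at 24 DAP and 27.2, 28.8 and 26.4 CPM at 32 DAP. The embryo libraries of 24 and 32 DAP all lay above those of 8 and 16 DAP. Over the pooled reads, 2168 at 24 DAP against 3 at 8 DAP, the embryo level was 842 times as high at 24 DAP (95% exact interval 288 to 4085, for counting error only). These reads chose the gene, so the ratio is a description and its interval shows only how few reads stand behind the 8 DAP level. In seed maternal tissues it had 25.0, 4.92 and 4.79 CPM at 4 DAP, 191, 239 and 162 CPM at 8 DAP, 36.7, 29.3 and 37.5 CPM at 16 DAP and 7.54, 6.35 and 4.04 CPM at 24 DAP. The maternal level was therefore a peak at 8 DAP with lower libraries on both sides of it. In endosperm it averaged 165 ± 49.9 CPM at 4 DAP and between 20.9 and 38.5 CPM at the later stages (SD, n = 3).

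HORVU.MOREX.r3.3HG0264790.1 came second by the ratio of the embryo change to the maternal change. In embryo it averaged 0.253 ± 0.0787 CPM at 8 DAP, 15.4 ± 10.3 CPM at 16 DAP, 79.8 ± 30.2 CPM at 24 DAP and 84.4 ± 9.28 CPM at 32 DAP (SD, n = 3 each). The maternal libraries had 33.4, 34.6 and 18.9 CPM at 8 DAP, 17.2, 14.0 and 13.8 CPM at 16 DAP and 16.1, 15.7 and 9.81 CPM at 24 DAP. Its change in the maternal tissues was small beside that in the embryo. At 4 DAP it stood at 4.56 and 3.99 CPM in seed maternal replicates 1 and 2 and at 70.9 CPM in replicate 3, the library that stands apart.

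HORVU.MOREX.r3.1HG0005600.1 had the highest mean of the 87 in embryo at 24 DAP and reached the highest level of any of them, in embryo at 16 DAP. In embryo it averaged 863 ± 304 CPM at 8 DAP, 6916 ± 2194 CPM at 16 DAP, 1843 ± 229 CPM at 24 DAP and 590.2 ± 18.4 CPM at 32 DAP (SD, n = 3 each). In seed maternal tissues it averaged 5621 ± 1014 CPM at 4 DAP, 5507 ± 284 CPM at 8 DAP, 2544 ± 671 CPM at 16 DAP and 2537 ± 764 CPM at 24 DAP. In embryo the level thus passed through a maximum at 16 DAP, and the ratio of 24 over 8 DAP, 2.14, describes little of that course. This gene alone carried much of the reads of the set: the 87 genes together took 0.785% to 1.40% of the counts in embryo libraries of 16 DAP, and 0.275% to 0.460% without it.

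The genes differed in the stage of their highest embryo mean. It was at 16 DAP in 16 genes (18.4%), at 24 DAP in 45 (51.7%) and at 32 DAP in 26 (29.9%), and the well-expressed genes had 23.9%, 16.5% and 26.7% of their embryo peaks at these stages. In seed maternal tissues the highest mean was at 4 DAP in 29 genes (33.3%), at 8 DAP in 53 (60.9%) and at 16 DAP in 5 (5.75%), where the well-expressed genes had 41.6%, 10.3% and 16.2%. The most frequent combination, in 29 genes, was an embryo maximum at 24 DAP with a maternal maximum at 8 DAP. Since the 8 and 24 DAP means chose the genes, these counts describe the set and test nothing. The maternal peaks rest on all 3 libraries of 4 DAP, with the one that stands apart included. In endosperm, whose change was held within narrow limits by the rule, the highest mean was at 32 DAP in 31 genes (35.6%), at 16 DAP in 24 (27.6%), at 4 DAP in 12, at 8 DAP in 12 (13.8% each) and at 24 DAP in 8 (9.20%). The well-expressed genes had 25.2% of their endosperm peaks at 32 DAP and 5.39% at 16 DAP. Their shares were 23.8% for 4 DAP, 38.8% for 8 DAP and 6.88% for 24 DAP. The tissue with the highest maximum was seed maternal tissues in 46 genes, embryo in 28 and endosperm in 13. These counts were not set beside those of the well-expressed genes, so they only describe the set.

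**Figure D2:**
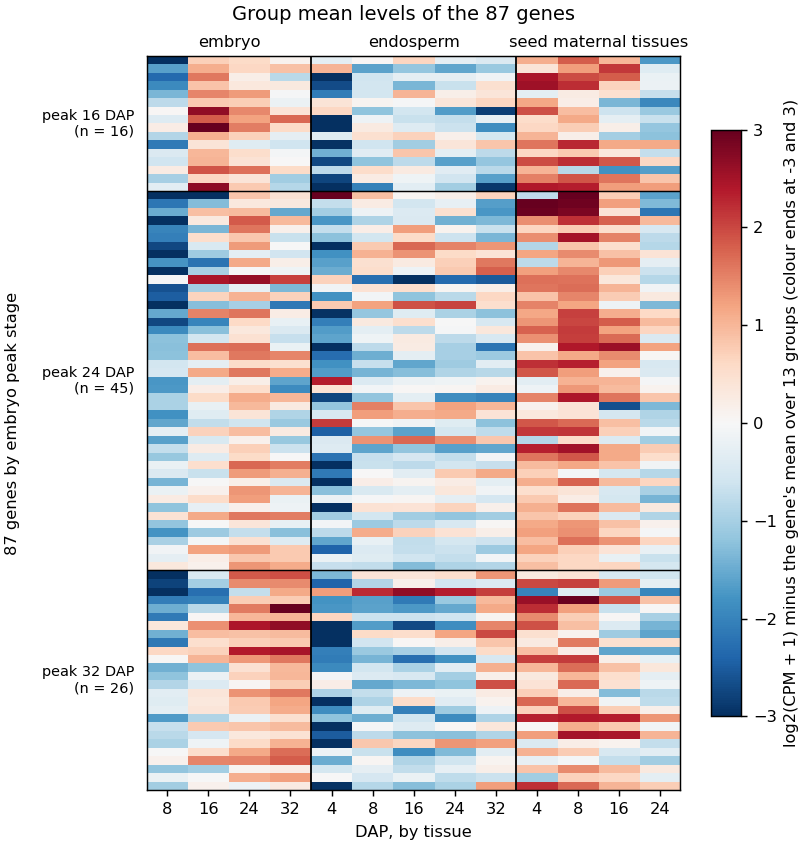
Mean level of each of the 87 genes (rows, grouped by the stage of the highest embryo mean) in the 13 tissue and stage groups (columns), as log2(CPM + 1) minus the mean of the gene over the groups, with 3 libraries per group. In embryo 77 genes lie below their own mean (blue) at 8 DAP and 10 at 24 DAP, in seed maternal tissues 4 do at 8 DAP and 58 at 24 DAP, and 16, 45 and 26 genes peak in embryo at 16, 24 and 32 DAP.

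With opposite courses, the tissue that held more of a transcript changed between 8 and 24 DAP in most genes. The embryo mean was higher than the seed maternal mean in 4 of the 87 genes at 8 DAP, in 32 at 16 DAP and in 69 at 24 DAP. The median ratio of embryo over seed maternal CPM was 0.128 at 8 DAP, 0.703 at 16 DAP and 2.48 at 24 DAP. The order turned between 16 and 24 DAP in 38 genes and between 8 and 16 DAP in 27. In 17 genes the maternal mean was the higher at all 3 stages, and in 4 the embryo mean was, while 1 gene was higher in embryo at 16 DAP only. At 8 DAP the 3 embryo libraries all lay below the 3 maternal ones in 79 genes (38.8% of all genes tested) and all above in 1 (29.7%). At 24 DAP they all lay above in 50 genes (28.4%) and all below in 6 (35.8%). The values of 8 and 24 DAP chose the genes and are not tested.

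**Figure D3:**
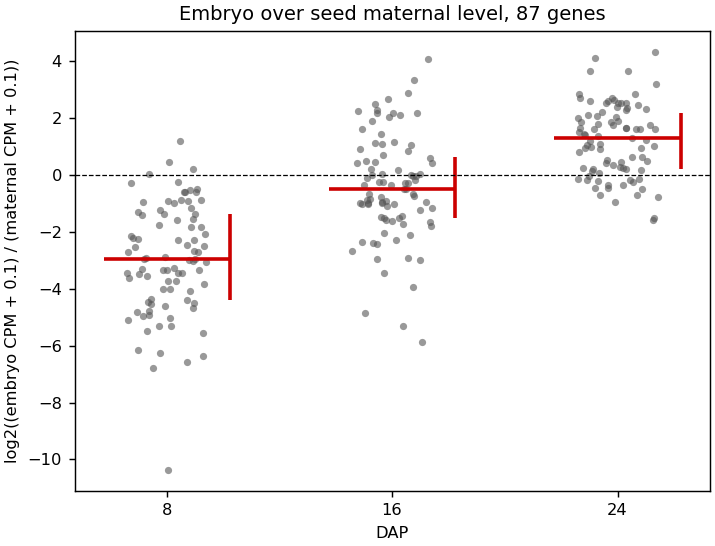
Ratio of the embryo mean over the seed maternal mean for each of the 87 genes (points) at 8, 16 and 24 DAP, on a log2 axis after 0.1 CPM was added to each mean; red bars mark the median and the quartiles, and the dashed line marks equal levels. The embryo mean lies above the maternal mean in 4 genes at 8 DAP, 32 at 16 DAP and 69 at 24 DAP.

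The libraries of 4, 16 and 32 DAP entered the rule only through the highest stage means, and comparisons among them were tested. The rule was met on the 8 and 24 DAP means alone by 69 of the 87 genes and by no further gene, while the other 18 passed the level criteria only through a high mean at 4, 16 or 32 DAP. A change to or from such a mean was favoured by the choice, so counts are also given for the 69 genes. A gene was called at an edgeR quasi-likelihood adjusted p under 0.05 (Benjamini-Hochberg over all 29594 genes tested) if its log2 fold change was also 1 or more in size, and all 87 genes were among those tested. Genes named as changing most were the first among those called whose libraries were separated and whose higher group averaged at least 20 CPM. The labels do not say that libraries of a group came from separate plants, so p-values measure the spread between these samples, which may be technical. Within the ratios that the rule used, the 16 DAP mean lay between those of 8 and 24 DAP in 66 of 87 genes in embryo, above both in 18 and below both in 3. The maternal mean of 16 DAP lay between them in 73 genes, above both in 6 and below both in 8.

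At 16 DAP, midway through these courses, embryo was compared with seed maternal tissues. Of the 87 genes, 17 were called higher in embryo (23.7% of all genes tested) and 25 lower (26.8%), with a median log2 fold change of -0.47. The share called higher was 19.5% and the share called lower 28.7%, both near the background. Among the well-expressed genes 23.8% were called higher and 19.0% lower, and among the 69 genes 12 (17.4%) were called higher and 21 (30.4%) lower. HORVU.MOREX.r3.3HG0286720.1 had the largest excess in embryo under that minimum, with 29.2, 47.8 and 57.2 CPM in embryo against 1.62, 3.49 and 2.54 CPM in seed maternal tissues. Every embryo library lay above every maternal one, and the log2 fold change was 4.17 (edgeR adjusted p = 1.21e-12, SE 0.32). HORVU.MOREX.r3.5HG0484810.1 lay farthest in the other direction among genes with at least 20 CPM in seed maternal tissues, with 0.313, 0.520 and 0.398 CPM in embryo against 17.8, 21.9 and 21.2 CPM in seed maternal tissues. Its log2 fold change was -5.58 (edgeR adjusted p = 2.11e-11, SE 0.48). Without replicate 3 of every group, 40 genes were called lower. No embryo library of 16 DAP shares a run of library numbers with a seed maternal library of 16 DAP. A term for the run could therefore be fitted only through libraries of other groups.

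Between 16 and 32 DAP the embryo levels of 30 of the 87 genes rose and those of 11 fell. Of the 87 genes, 30 (34.5%) were called higher at 32 than at 16 DAP, against 14% of all genes tested and 17.1% of the well-expressed genes. A further 11 (12.6%) were called lower, against 18.9% of all genes tested and 17.6% of the well-expressed genes. The median log2 fold change was 0.52 over the 87 genes, 0.05 over the well-expressed genes and 0 over all genes tested. It was 0.24 without replicate 1 of the 16 DAP embryo, 0.81 without its replicate 3 and 0.30 without replicate 1 of the 32 DAP embryo. The 69 genes chosen on 8 and 24 DAP alone held 21 called higher (30.4%) and 9 called lower (13%), with a median of 0.33. Of the 87, 46 genes were not called in either direction.

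HORVU.MOREX.r3.2HG0159540.1 rose most in embryo among genes with at least 20 CPM at 32 DAP, with 37.3, 46.4 and 34.2 CPM at 32 DAP against 0.564, 1.23 and 1.59 CPM at 16 DAP. The log2 fold change was 5.30 (edgeR adjusted p = 2.79e-07, SE 0.71). At 24 DAP it stood at 9.93, 12.2 and 8.61 CPM, so that the libraries of 16, 24 and 32 DAP did not overlap. HORVU.MOREX.r3.5HG0498710.1 rose next, with a log2 fold change of 4.84 (edgeR adjusted p = 2.78e-09, SE 0.50), and its 32 DAP libraries lay below those of 24 DAP. In the other direction, HORVU.MOREX.r3.1HG0005600.1 had 589.6, 609 and 572 CPM at 32 DAP against 5096, 6299.8 and 9353 CPM at 16 DAP. Its log2 fold change was -3.33 (edgeR adjusted p = 4.02e-12, SE 0.26). HORVU.MOREX.r3.7HG0711200.1 had 5.82, 5.07 and 6.07 CPM at 32 DAP against 26.05, 38.9 and 37.7 CPM at 16 DAP, with a log2 fold change of -2.37 (edgeR adjusted p = 2.03e-07, SE 0.32). Both falling genes had been higher at 16 than at 24 DAP in embryo. All 32 DAP libraries carry numbers of a run of their own, so run and stage cannot be told apart in this comparison. Without replicate 1 of every group 19 genes were called higher and without replicate 2 18 were, and without replicate 3 of the 32 DAP embryo 7 were called lower.

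In seed maternal tissues 28 of the genes fell between 4 and 16 DAP and 8 rose. These 28 of the 87 (32.2%) were lower at 16 than at 4 DAP, against 14% of all genes tested and 13.2% of the well-expressed genes. The 8 called higher (9.2%) stood against 17.4% of all genes tested and 9.92% of the well-expressed genes. The 69 genes had 19 called lower (27.5%) and 7 higher (10.1%). The median log2 fold change was -0.55 over the 87 genes. It depended on the library that stands apart: without replicate 3 of the 4 DAP seed maternal tissues, the median was -0.05. In that fit 24 of the 87 genes (27.6%) were called lower, against 13.9% of all genes then tested. A further 21 (24.1%) were called higher, against 18.7%, so the share called higher then lay above that of all genes. Without replicate 1 or replicate 2 of the 4 DAP tissues, 5 genes were called higher, and with a term for the run of library numbers 1 gene was called higher and 19 lower.

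The named falls in the maternal tissues did not rest on that library. HORVU.MOREX.r3.3HG0286720.1 had 1.62, 3.49 and 2.54 CPM at 16 DAP against 25.4, 22.6 and 25.2 CPM at 4 DAP, with a log2 fold change of -3.28 (edgeR adjusted p = 4.34e-10, SE 0.31). HORVU.MOREX.r3.3HG0239020.1 had 9.58, 16.2 and 14.5 CPM at 16 DAP against 84.0, 86.2 and 120.1 CPM at 4 DAP, with a log2 fold change of -2.89 (edgeR adjusted p = 5.25e-08, SE 0.34). In both, every library of 16 DAP lay below every library of 4 DAP, and both stayed called when replicate 3 of 4 DAP was left out. Of the genes that rose, HORVU.MOREX.r3.2HG0182010.1 had 196, 196 and 137 CPM at 16 DAP against 6.84, 3.51 and 85.1 CPM at 4 DAP. Its log2 fold change was 2.36 (edgeR adjusted p = 0.0395, SE 0.92), and the call was lost when replicate 1 or 2 of 4 DAP or any 1 library of 16 DAP was left out. HORVU.MOREX.r3.5HG0498710.1 had 36.7, 29.3 and 37.5 CPM at 16 DAP against 25.0, 4.92 and 4.79 CPM at 4 DAP, a log2 fold change of 1.56 (edgeR adjusted p = 0.00238, SE 0.41) that was not called with a term for the run or with these 6 libraries alone.

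The comparison of the 8 and 4 DAP maternal libraries also moved with that library. The mean at 8 DAP was above that at 4 DAP in 58 of the 87 genes, with a median ratio of 1.15, and in 62 genes with a median ratio of 1.67 when replicate 3 of 4 DAP was left out. The 3 libraries of 8 DAP all lay above the 3 of 4 DAP in 20 genes (14.5% of all genes tested) and all below in 16 (19.8%). Levels of 8 DAP chose the genes, so these values are a description.

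**Figure D4:**
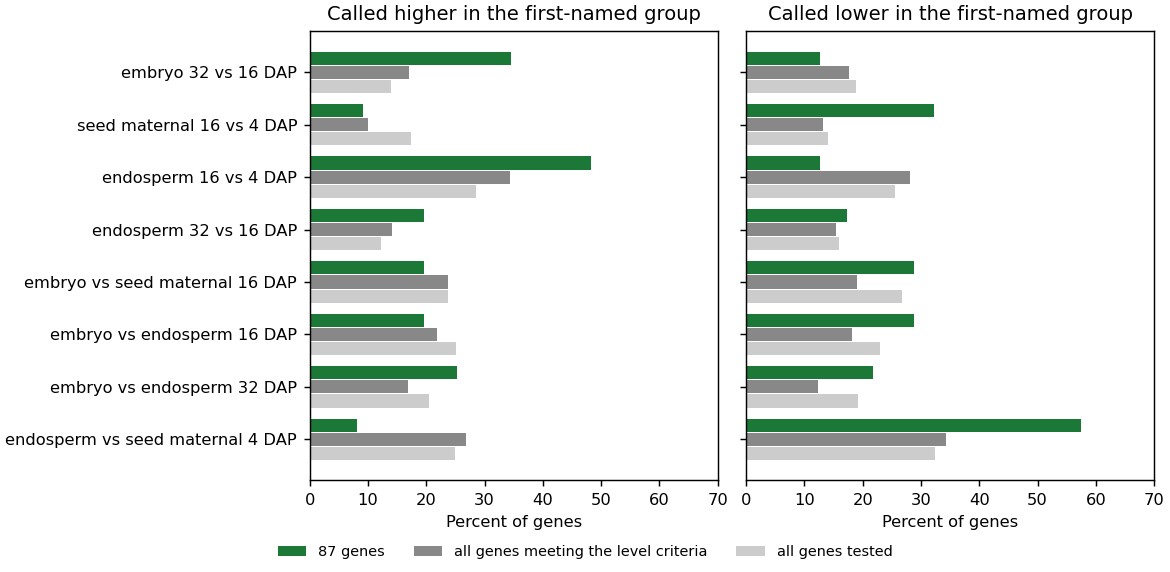
Percent of genes called higher (left) and lower (right) in the group named first, for 8 comparisons among libraries of 4, 16 and 32 DAP: the 87 genes (green), the 10601 well-expressed genes that met the level criteria (dark grey) and all 29594 genes tested (light grey), by edgeR with 3 libraries per group. In embryo 34.5% of the 87 genes are called higher at 32 than at 16 DAP, in seed maternal tissues 32.2% are called lower at 16 than at 4 DAP, and at 4 DAP 57.5% are called lower in endosperm than in the maternal tissues.

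Endosperm levels, which the rule held steady between 8 and 24 DAP, rose in 42 genes and fell in 11 between 4 and 16 DAP. These 42 of the 87 genes (48.3%) were called higher at 16 DAP, against 28.6% of all genes tested and 34.3% of the well-expressed genes, and 11 (12.6%) were called lower, against 25.5% and 28.1%. The median log2 fold change was 1.24 over the 87 genes, 0.18 over the well-expressed genes and 0.06 over all genes tested. Among the 69 genes 36 (52.2%) were called higher and 5 (7.25%) lower. HORVU.MOREX.r3.1HG0015130.1 had 37.7, 19.4 and 23.4 CPM at 16 DAP against 0.165, 0.317 and 0 CPM at 4 DAP, where it had at most 6 reads in a library. Its log2 fold change was 6.84 (edgeR adjusted p = 2.60e-16, SE 0.38). HORVU.MOREX.r3.3HG0298340.1 went the other way, with 0.392, 0.352 and 0.0489 CPM at 16 DAP against 20.7, 14.2 and 26.8 CPM at 4 DAP and a log2 fold change of -6.59. It met the level criteria only through the endosperm mean of 4 DAP, so this fall is a description and its test is not given. The groups of both genes did not overlap. The 4 DAP endosperm libraries fill a run of library numbers, so run and stage cannot be told apart.

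Between 16 and 32 DAP, endosperm calls of the set were split between the directions. Of the 87 genes, 17 were called higher at 32 than at 16 DAP (12.2% of all genes tested) and 15 lower (15.9%), shares of 19.5% and 17.2%, with a median log2 fold change of -0.10. Among the well-expressed genes 14.1% were called higher and 15.5% lower. Of the 69 genes, 9 (13%) were called higher and 12 (17.4%) lower. HORVU.MOREX.r3.1HG0064610.1 had 37.9, 24.8 and 30.5 CPM at 32 DAP against 1.31, 0.845 and 0.196 CPM at 16 DAP, a log2 fold change of 5.15. HORVU.MOREX.r3.2HG0182010.1 had 1.66, 1.46 and 13.6 CPM at 32 DAP against 61.3, 19.7 and 23.2 CPM at 16 DAP. Its log2 fold change was -2.94, and 1 library of 32 DAP stood well above the other two. With all other stages counted, each of these genes met the level criteria only through the higher of the endosperm means compared, at 32 DAP in HORVU.MOREX.r3.1HG0064610.1 and at 16 DAP in HORVU.MOREX.r3.2HG0182010.1, so both changes are a description with no test. The count of lower calls was 8 without replicate 1 of every group, 9 without replicate 2 and 23 without replicate 3. Run and stage cannot be told apart here either.

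The changes of embryo and endosperm between 16 and 32 DAP were also compared within 1 fit, as a difference of the log2 fold changes with no fold minimum. In 18 of the 87 genes (20.7%) the embryo change was the higher, against 12.8% of all genes tested and 22.8% of the well-expressed genes, and in 11 (12.6%) it was the lower, against 12.5% and 19.5%. The 69 genes had 15 called higher (21.7%) and 7 lower (10.1%). The median difference was 0.47 over the 87 genes and 0.02 over all genes tested. With library size alone as the scaling, 8 genes were called higher and 17 lower, while that scaling moved the median of all genes by -0.38. With a term for the run of library numbers 18 were called higher and 12 lower. Relative to the median of all genes, the median of the 87 was 0.46 higher with TMM factors and 0.39 higher with library size alone. Without replicate 1, 2 or 3 of every group, 7, 6 and 34 genes were called higher. HORVU.MOREX.r3.5HG0424970.1 is described without a test, since, with its endosperm mean of 16 DAP counted, it met the level criteria only through its embryo mean of 32 DAP. The difference of its changes was 5.13 on the log2 scale. In embryo it had 22.2, 24.2 and 22.0 CPM at 32 DAP against 0.376, 1.2996 and 2.0998 CPM at 16 DAP, and in endosperm 40.9, 50.4 and 42.6 CPM at 32 DAP against 107, 47.1 and 47.1 CPM at 16 DAP.

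The same was done for seed maternal tissues and endosperm between 4 and 16 DAP. In 49 of the 87 genes (56.3%) the maternal change was below the endosperm change, against 24.5% of all genes tested and 40.1% of the well-expressed genes, and in 6 (6.9%) it was above, against 23.2% and 30.9%. The 69 genes had 41 below (59.4%) and 2 above (2.9%). The median difference was -1.98 on the log2 scale over the 87 genes. Without replicate 3 of the 4 DAP seed maternal tissues, 42 genes (48.3%) were called lower and 13 (14.9%) higher, with a median difference of -1.21. Of all genes then tested, 22.6% were called lower and 22.6% higher. HORVU.MOREX.r3.3HG0239020.1 is an example, with maternal means of 13.5 ± 3.46 CPM at 16 DAP against 96.8 ± 20.2 CPM at 4 DAP and endosperm means of 158 ± 101 CPM at 16 DAP against 39.6 ± 15.2 CPM at 4 DAP (SD, n = 3 each). The difference of its changes was -4.67 (SE 0.47). This gene was picked as an example after its values were seen, so the difference is a description and its test is not given.

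At 4 DAP the genes were mostly lower in endosperm than in the maternal layers around it. In endosperm 50 of the 87 genes (57.5%) were called lower than in seed maternal tissues, against 32.4% of all genes tested and 34.3% of the well-expressed genes, and 7 (8.05%) were called higher, against 25% and 26.8%. The median log2 fold change was -2.01, and that of all genes tested was -0.34. Among the 69 genes 39 (56.5%) were called lower and 6 (8.7%) higher. Without replicate 3 of the 4 DAP seed maternal tissues, 40 genes (46%) were called lower and 13 (14.9%) higher, with a median of -0.97. Of all genes then tested, 29.6% were called lower and 24.6% higher. HORVU.MOREX.r3.7HG0711200.1 had 0.248, 0.0794 and 0 CPM in endosperm against 65.6, 62.1 and 59.6 CPM in seed maternal tissues, a log2 fold change of -7.15 (edgeR adjusted p = 1.02e-14, SE 0.46). The endosperm libraries held 9, 1 and 0 reads of it, so the size of this fold change rests on few reads. HORVU.MOREX.r3.5HG0424970.1 had the largest excess in endosperm, with 24.6, 23.3 and 26.3 CPM in endosperm against 2.13, 2.16 and 0.964 CPM in seed maternal tissues and a log2 fold change of 5.04 (edgeR adjusted p = 8.48e-13, SE 0.39). The endosperm libraries of 4 DAP form a run of library numbers of their own, so run and tissue cannot be told apart.

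Embryo and endosperm, the filial tissues, were compared at 16 and 32 DAP. At 16 DAP, 17 of the 87 genes (19.5%) were called higher in embryo, against 25.1% of all genes tested and 21.9% of the well-expressed genes. A further 25 (28.7%) were called lower, against 23% and 18.2%. The median log2 fold change was -0.38. At 32 DAP, 22 genes (25.3%) were called higher in embryo, against 20.4% of all genes tested and 16.9% of the well-expressed genes. The 19 called lower (21.8%) stood against 19.2% and 12.3%, and the median was 0.12. That last median was -0.27 without replicate 1 of the 32 DAP embryo and 0.34 without its replicate 3, so its sign rested on 1 library. The 69 genes had 12 (17.4%) higher and 23 (33.3%) lower at 16 DAP, and 15 (21.7%) higher and 16 (23.2%) lower at 32 DAP, with a median of -0.20. The splits depended on the scaling, since library size alone moved the median of all genes by 0.94 at 16 DAP and by 0.49 at 32 DAP. With it, 32 genes were called higher and 12 lower at 16 DAP, and 32 higher and 13 lower at 32 DAP. Relative to the median of all genes, the median of the 87 was -0.38 with TMM factors and -0.32 with library size alone at 16 DAP, and 0.12 with either at 32 DAP. On the CPM scale, which uses library size alone, the embryo mean was above the endosperm mean in 57 of the 87 genes at 16 DAP. With that scaling the median log2 fold change of all genes tested was itself 0.94. The share of all genes with that order was not counted, so the 57 are not read as an embryo excess. Without replicate 1 of every group, 16 genes were called lower at 16 DAP.

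Single genes differed by far more than such shifts. HORVU.MOREX.r3.3HG0298340.1 had 63.0, 84.5 and 67.6 CPM in embryo against 0.392, 0.352 and 0.0489 CPM in endosperm at 16 DAP, a log2 fold change of 7.20 (edgeR adjusted p = 2.81e-14, SE 0.46). Its size rests on 6, 5 and 1 reads of the gene in these endosperm libraries. At 32 DAP this gene had 54.8, 46.3 and 59.7 CPM in embryo against 1.40, 1.13 and 1.46 CPM in endosperm, with a log2 fold change of 4.84 (edgeR adjusted p = 2.69e-12, SE 0.37). Its endosperm libraries of both stages lay below every embryo library, while those of 4 DAP had up to 26.8 CPM. HORVU.MOREX.r3.5HG0424970.1 was lower in embryo at 16 DAP with a log2 fold change of -6.59 (edgeR adjusted p = 3.92e-14, SE 0.42), with 0.376, 1.2996 and 2.0998 CPM in embryo against 107, 47.1 and 47.1 CPM in endosperm. HORVU.MOREX.r3.6HG0632000.1 was the gene farthest below endosperm at 32 DAP, with 6.35, 5.83 and 5.10 CPM in embryo against 33.3, 50.7 and 40.7 CPM in endosperm and a log2 fold change of -3.35 (edgeR adjusted p = 2.42e-14, SE 0.21).

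**Figure D5:**
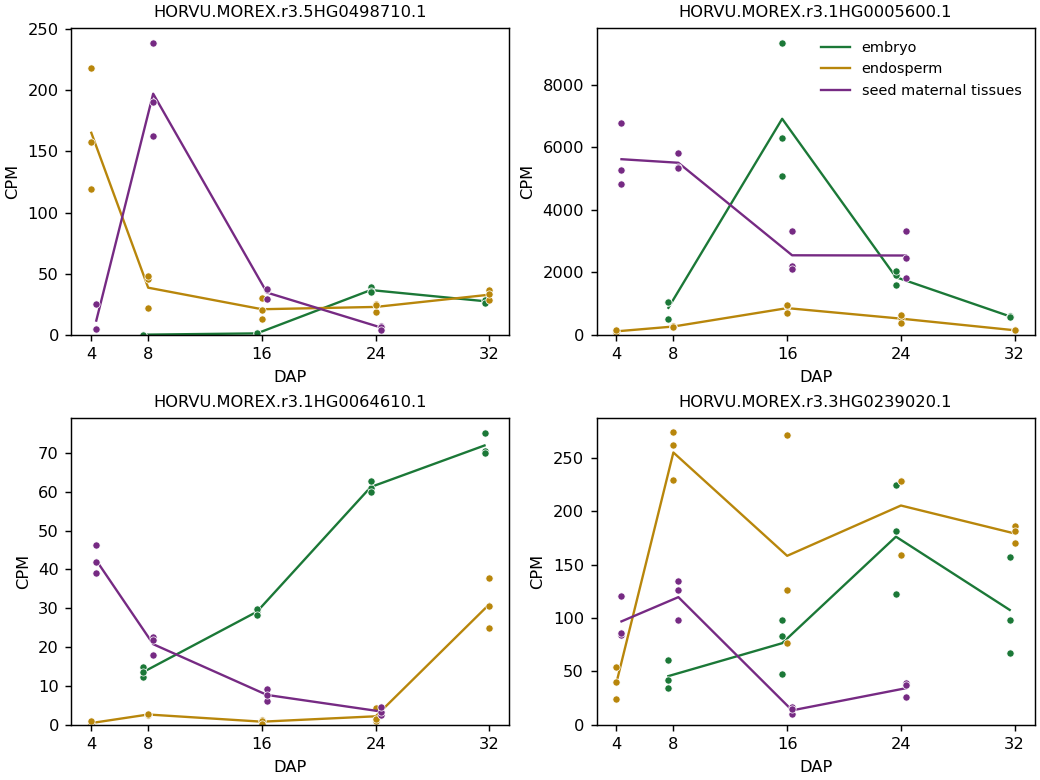
CPM of 4 of the 87 genes in every library (points) by days after pollination and tissue, with lines through the means of 3 libraries; each panel has its own linear axis. HORVU.MOREX.r3.5HG0498710.1 peaks in seed maternal tissues at 8 DAP (162 to 239 CPM), HORVU.MOREX.r3.1HG0005600.1 reaches 9353 CPM in an embryo library of 16 DAP, HORVU.MOREX.r3.1HG0064610.1 has its highest embryo libraries at 32 DAP (70.02 to 75.2 CPM), and HORVU.MOREX.r3.3HG0239020.1 lies between 9.58 and 16.2 CPM in seed maternal tissues at 16 DAP.

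HORVU.MOREX.r3.1HG0064610.1 shows the opposite courses over all stages sampled. In embryo it averaged 13.6 ± 1.36 CPM at 8 DAP, 29.1 ± 0.666 CPM at 16 DAP, 61.2 ± 1.33 CPM at 24 DAP and 71.9 ± 2.83 CPM at 32 DAP (SD, n = 3 each). Its maternal mean was 42.3 ± 3.63 CPM at 4 DAP, 20.7 ± 2.47 CPM at 8 DAP, 7.67 ± 1.49 CPM at 16 DAP and 3.42 ± 1.15 CPM at 24 DAP. In endosperm it stayed at or under 2.63 CPM on average up to 24 DAP and averaged 31.1 ± 6.58 CPM at 32 DAP. The embryo change from 16 to 32 DAP had a log2 fold change of 1.53 (SE 0.33), and the maternal change from 4 to 16 DAP had one of -2.50 (SE 0.35). The gene was picked for these courses after its values were seen, so the changes are a description and their tests are not given. With all other stages counted, it met the level criteria only through its endosperm mean of 32 DAP.

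Some of the genes were called in both tested courses. Of the 30 genes called higher in embryo at 32 than at 16 DAP, 10 were also called lower in seed maternal tissues at 16 than at 4 DAP, 5 were called higher there and 15 were not called. The 10 genes are 11.5% of the 87, against 0.906% of all genes tested and 0.811% of the well-expressed genes with both calls, and 6 of the 69 genes (8.7%) had both. The shares of the 87 called in each comparison by itself were 34.5% and 32.2%, so the overlap of the calls within the set is not read as a result. The 5 genes called higher in both comparisons are 5.75% of the 87, against 4.11% of all genes tested and 4.08% of the well-expressed genes. Of the 11 called lower in embryo, 5 (45.5%) were called lower in the maternal tissues and 1 (9.09%) was called higher. Among all genes tested that were called lower in embryo, these shares were 34.4% and 14.8%. Neither comparison called 31 genes. All these joint calls include replicate 3 of the 4 DAP seed maternal tissues and are not given without it. In the 30 genes called higher in embryo from 16 to 32 DAP, endosperm levels were also called higher over the same stages in 9 (30%) and lower in 2 (6.67%). Some of these genes met the level criteria only through their endosperm mean of 32 DAP, which favoured such calls. Among the 69 genes, 21 were called higher in embryo, and of these 4 (19%) were also called higher in endosperm and 1 (4.76%) lower. Of the well-expressed genes called higher in embryo, 42.8% were also called higher in endosperm and 2.87% lower.

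The chromosome labels in the identifiers were spread over the genome. There were 14 genes on 1H, 17 on 2H, 15 on 3H, 6 on 4H, 12 on 5H, 7 on 6H and 14 on 7H, and 2 carry the label for unplaced sequence. The shares, such as 19.5% on 2H and 6.90% on 4H, stood beside 16.3% and 12.8% of the well-expressed genes on these chromosomes.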

How the data were processed

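The deposited table holds raw read counts of 83990 transcript entries in 39 libraries, which the authors had neither pooled nor normalized. Per the submitters' processing notes, the tools were bcl2fastq, HISAT2 2.1.0, SAMtools and Subread 1.5.2. The genome build, strandedness and handling of multiply mapped reads are not given in the sources used here, so reads of near-identical, overlapping or antisense genes may have been divided or lost.

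CPM is the count divided by its column total. The members, the comparisons and the rule for named genes were chosen with earlier results of these data known. Gene lists by product description were planned and not run, since 0 identifiers matched the reference table (assembly MorexV3, 58438 genes). Named genes are the 2 with the largest ratio of embryo to maternal change, the called genes with the largest rise and fall in each comparison that had separated libraries and at least 20 CPM, and the highest embryo mean at 24 DAP. HORVU.MOREX.r3.5HG0424970.1 and HORVU.MOREX.r3.3HG0239020.1 as examples of the differences between tissue changes, and HORVU.MOREX.r3.1HG0064610.1 over all stages, were picked from these after their values were seen.

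Tests used edgeR 4.0.16 in R 4.3.3 (limma 3.58.1): filterByExpr kept 29594 genes, and 1 model with 13 groups and 26 residual degrees of freedom was fitted with TMM factors, estimateDisp, robust glmQLFit and glmQLFTest. Standard errors follow from the fold change and its F statistic. The model was tested on simulated data. The replicate numbers did not pair the samples: deviations of equally numbered libraries correlated between -0.24 and 0.09 over 24 pairs of libraries. Alternatives were 3 other scalings, DESeq2 1.42.0, no low-count filter, another fold minimum, terms for replicate number or library run, only the groups compared, and fits without replicates or single libraries, and the genes that met the rule on the 8 and 24 DAP libraries alone, which was chosen after seeing the data. The counting interval covers counting error only, and reads lacking molecular identifiers may stem from the same molecule.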

Additional observations from a re-analysis of the deposited data

Results flagged for a closer look

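The following counts are listed because the change over time differed between tissues in some of the 87 genes, in a test of the difference itself. Between 16 and 32 DAP the embryo change was above the endosperm change in 18 genes and below it in 11. These are 20.7% and 12.6% of the 87, against 12.8% and 12.5% of all genes tested and 22.8% and 19.5% of the well-expressed genes, so neither share exceeded that of the well-expressed genes. With library size alone as the scaling these counts were 8 and 17, and the median of all genes moved by -0.38. The median of the 87 genes stayed above that of all genes, by 0.46 with TMM factors and by 0.39 with library size alone. Between 4 and 16 DAP the seed maternal change was above the endosperm change in 6 genes and below it in 49. These are 6.9% and 56.3% of the 87, against 23.2% and 24.5% of all genes tested and 30.9% and 40.1% of the well-expressed genes. In the 69 genes that met the rule on 8 and 24 DAP alone, the counts were 15 and 7 for the embryo and 2 and 41 for the seed maternal tissues. For all 87, without replicate 3 of the 4 DAP seed maternal tissues, the seed maternal counts were 13 (14.9%) and 42 (48.3%). Of all genes then tested, 22.6% were above and 22.6% below. With a term for the run of library numbers, the embryo change was above the endosperm change in 18 genes and below it in 12. No such term could be fitted for the seed maternal difference, since all 4 DAP endosperm libraries fill a run of their own, so run and stage cannot be told apart there. The part of the extraction kit in these differences was not tested.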

How the results depend on the processing

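Replicates are 3 per group, endosperm libraries reach the lowest depths (6148131 reads), and 2 of the 87 genes had 3 reads or fewer in every endosperm library of 4 DAP, 2 in embryo at 8 DAP and 1 in embryo at 16 DAP. With such genes at the bound that 3 reads give, no median of a comparison changed. Of the 87 genes, 75 met the rule with TMM factors, 62 with upper-quartile factors, 70 with medians per group, 65, 62 and 74 without replicate 1, 2 and 3 of every group, 86 with the embryo libraries of 1 run, 86 without replicate 3 of the 16 DAP endosperm, and 85 with 0.1 CPM added.

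Library size alone gave 32 genes higher and 12 lower for embryo against endosperm at 16 DAP, 4 higher for endosperm against seed maternal tissues at 4 DAP, and 8 higher and 17 lower for the embryo minus the endosperm change. For seed maternal tissues at 16 against 4 DAP, 1 gene was called higher with the term for library run and 3 with only the groups compared. Without single libraries or a replicate of every group, that count ran from 2 to 21. The same omissions gave 18 to 38 higher and 7 to 13 lower for embryo at 32 against 16 DAP, 8 to 23 lower for endosperm at 32 against 16 DAP, 19 to 40 lower for embryo against seed maternal tissues and 16 to 33 lower for embryo against endosperm at 16 DAP. They gave 5 to 14 higher for endosperm against seed maternal tissues at 4 DAP, 6 to 34 higher for the embryo minus the endosperm change and 5 to 13 higher for the seed maternal minus the endosperm change. The cause was not tested. In the 69 genes that met the rule on the 8 and 24 DAP libraries alone, 5 were called lower for endosperm at 16 against 4 DAP, 9 higher for endosperm at 32 against 16 DAP, 7 lower for the embryo minus the endosperm change and 2 higher for the seed maternal minus the endosperm change, with fewer genes counted. The other counts stayed within 1.5 times the reported ones under every alternative run. The fit with a replicate block, although the numbers do not pair the samples, called 29 higher and 11 lower for embryo at 32 against 16 DAP and 8 higher and 27 lower for seed maternal tissues at 16 against 4 DAP. Library run could not be fitted as a term for embryo 32 against 16 DAP, either endosperm comparison over time, endosperm against seed maternal tissues at 4 DAP, or the seed maternal minus the endosperm change. Of 344 alternative values of single named genes, 325 kept their call, 19 lost it and 0 reversed.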
